A study of Mus musculus with 6 samples.

Results

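The SLC25 family, the carrier proteins that move metabolites, nucleotides and cofactors across the inner membrane of the mitochondrion, was examined at the level of its messenger RNA in mouse kidney. Its members were the rows of the gene table whose symbol is Slc25a followed by a number, without Slc25a20 and Slc25a37. The table held 44 such genes among 19087, and 40 of them had 10 or more reads in at least 3 of the 6 libraries. All 40 reached that number of reads in every library, so none entered through 1 group alone. RNA was sequenced from kidneys of wild-type mice in 3 control samples and 3 samples from mice given cisplatin, a platinum drug that injures the kidney tubule, by intraperitoneal injection. The study's wider question is how a high-fat diet worsens acute kidney injury. No source used here gives the dose, the time after injection, age, sex or diet, or says whether the controls were injected. Nothing in the labels ties each sample to a separate animal. The p-values therefore reflect only how far these 6 samples scatter, and part of that scatter may be technical.

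SLC25 carriers are built from repeated pairs of membrane helices, and most exchange one substrate for another across the inner membrane. They bring ADP and phosphate to ATP synthase and send ATP out. They also carry reducing equivalents by way of malate and aspartate, and they supply the matrix with cofactors such as coenzyme A and NAD. The proximal tubule of the kidney is rich in mitochondria and depends on this traffic for its ATP.

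Estimated counts per library summed to between 16725665 and 18523666. The kidney markers were present: the 7 proximal tubule markers summed to 4221 to 4633 FPKM in the controls (fragments per kilobase of transcript, scaled to sequencing depth, a level that can be compared between genes). In cisplatin they summed to 834 to 1854 FPKM, and 6 of the 7 were lower. The 3 tubule injury markers Havcr1, Lcn2 and Krt20 summed to 10.3 to 16.1 FPKM in the controls and 589 to 1714 FPKM in cisplatin. The 5 erythroid markers summed to 99.6 to 1258 FPKM in the controls and 0.67 to 0.95 FPKM in cisplatin, where Hba-a2 was listed at 0 in every library, and the 7 leukocyte markers to 32.5 to 34.4 and 71.1 to 97.3 FPKM. Of the leukocyte markers 2 were higher (Cd68 and S100a8), 2 lower (Ptprc and Csf1r) and 2 not called, and 1 was below the count filter. Cd68 carried the higher sum, and the other 6 summed to 24.5 to 28.1 FPKM in the controls and 18.6 to 20.7 FPKM in cisplatin. Markers of the thick limb, the distal convoluted tubule and the endothelium were all lower (2, 2 and 3 genes), 1 of 3 collecting duct markers was higher and 1 lower, 1 of 2 podocyte markers was higher, and the 4 adipocyte markers were below the filter. Within its group, cisplatin replicate 3 had the lowest sum of injury markers (589 FPKM) and the highest sum of proximal tubule markers (1854 FPKM). Its sum of thick limb markers was the lowest, 470 FPKM against 1656 to 2116 FPKM in the controls, and so the farthest from them. The part of these shifts in the results on carriers was not tested, and in whole tissue fewer cells of a type and less RNA per cell cannot be told apart.

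The promoters of Slc25a25 and Slc25a36 are shown because they were the only 2 of the family's windows to hold a full cAMP response element. Slc25a25 was among the genes that rose, whereas Slc25a36 was not called, and the difference between them was not tested. RefSeq promoter windows (250 bases before to 50 after an annotated start, GRCm38.p6) were found for 32 of the 40 genes, in 42 windows. The element, TGACGTCA, the site bound by CREB and related factors, reads the same on both strands and stood in 588 of 32851 windows of all genes (1.79%). It was chosen for the search after the expression values were known. The Slc25a25 window lies on the minus strand of chromosome 2 (chr2:32424017-32424316) and the Slc25a36 window on the minus strand of chromosome 9 (chr9:97110992-97111291), and capitals mark the element.
Slc25a25: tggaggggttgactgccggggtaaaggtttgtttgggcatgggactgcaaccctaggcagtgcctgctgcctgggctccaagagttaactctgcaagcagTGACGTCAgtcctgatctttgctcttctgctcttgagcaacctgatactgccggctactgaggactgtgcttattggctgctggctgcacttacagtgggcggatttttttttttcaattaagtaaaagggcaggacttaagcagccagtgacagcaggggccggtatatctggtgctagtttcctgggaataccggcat
Slc25a36: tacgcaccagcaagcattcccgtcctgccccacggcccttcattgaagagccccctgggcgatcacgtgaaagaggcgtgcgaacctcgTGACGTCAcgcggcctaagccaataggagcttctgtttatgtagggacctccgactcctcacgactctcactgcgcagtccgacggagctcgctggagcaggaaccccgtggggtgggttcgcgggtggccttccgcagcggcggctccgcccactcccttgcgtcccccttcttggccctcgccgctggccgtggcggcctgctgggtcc
The element began 150 bases before the annotated start of Slc25a25 and 161 bases before that of Slc25a36. The other 2 windows of Slc25a25, at starts farther upstream, did not hold it. The pattern TGANTCA (both strands), in which N is any base, was searched as a loose form of the AP-1 element. It stood in 2 of the family's 42 windows, against 7.81% of all windows. The matches were TGAGTCA in Slc25a13 and TGATTCA in Slc25a11. Both genes were called lower, as were 16 of the 40 carriers, and a link was not tested. The nuclear receptor element AAGGTCA (both strands) stood in 1 window, that of Slc25a34, against 4.72% of all windows. A match of letters is a description and shows no binding.

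Of the 40 carriers, 5 were higher and 16 lower in cisplatin kidneys at an adjusted p under 0.05 (edgeR's quasi-likelihood test over all genes), and 19 were not called. Among all 14392 genes tested, 23.1% were higher, 22.2% lower and 45.4% either. The family thus had 12.5% of its members higher and 40% lower. Its median log2 fold change was -0.25, against 0.01 over all genes tested. The shares over all genes, 23.1% higher and 22.2% lower, also stand beside the counts for the substrate groups given below. Only 4 carriers passed the test with a change of at least 2-fold, Slc25a24 and Slc25a25 upward and Slc25a21 and Slc25a42 downward, whereas 7.43% of all genes were that much higher and 5.36% that much lower. The 2 falls lay at that threshold, and both were smaller than 2-fold with scaling to library size (log2 fold changes -0.89 for Slc25a21 and -0.88 for Slc25a42), in limma on FPKM, without control replicate 2 (-0.99 and -0.91) and without cisplatin replicate 2 (-0.79 and -0.94). In CPM (counts scaled to library size with TMM factors), 5 carriers lay higher in every cisplatin library than in every control library and 24 lay lower, against 29.2% and 28.4% of all genes (57.6% in either direction). In FPKM, which carry no TMM factors, 7 carriers lay higher and 16 lower without overlap, against 38.4% and 20.4% of all genes.

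These directions are relative to the scaling. With scaling to library size alone, the median of all genes moved from 0.01 to 0.14 and that of the carriers from -0.25 to -0.12, and 5 carriers were higher and 13 lower beside 32.2% and 15.8% of all genes. Under that scaling 67.0% of all calls were higher, against 51% with TMM factors. The carriers' median lay 0.26 below that of all genes with TMM factors and 0.27 below it with scaling to library size. FPKM values are therefore relatively higher in cisplatin than the fitted changes beside them.

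**Figure D1:**
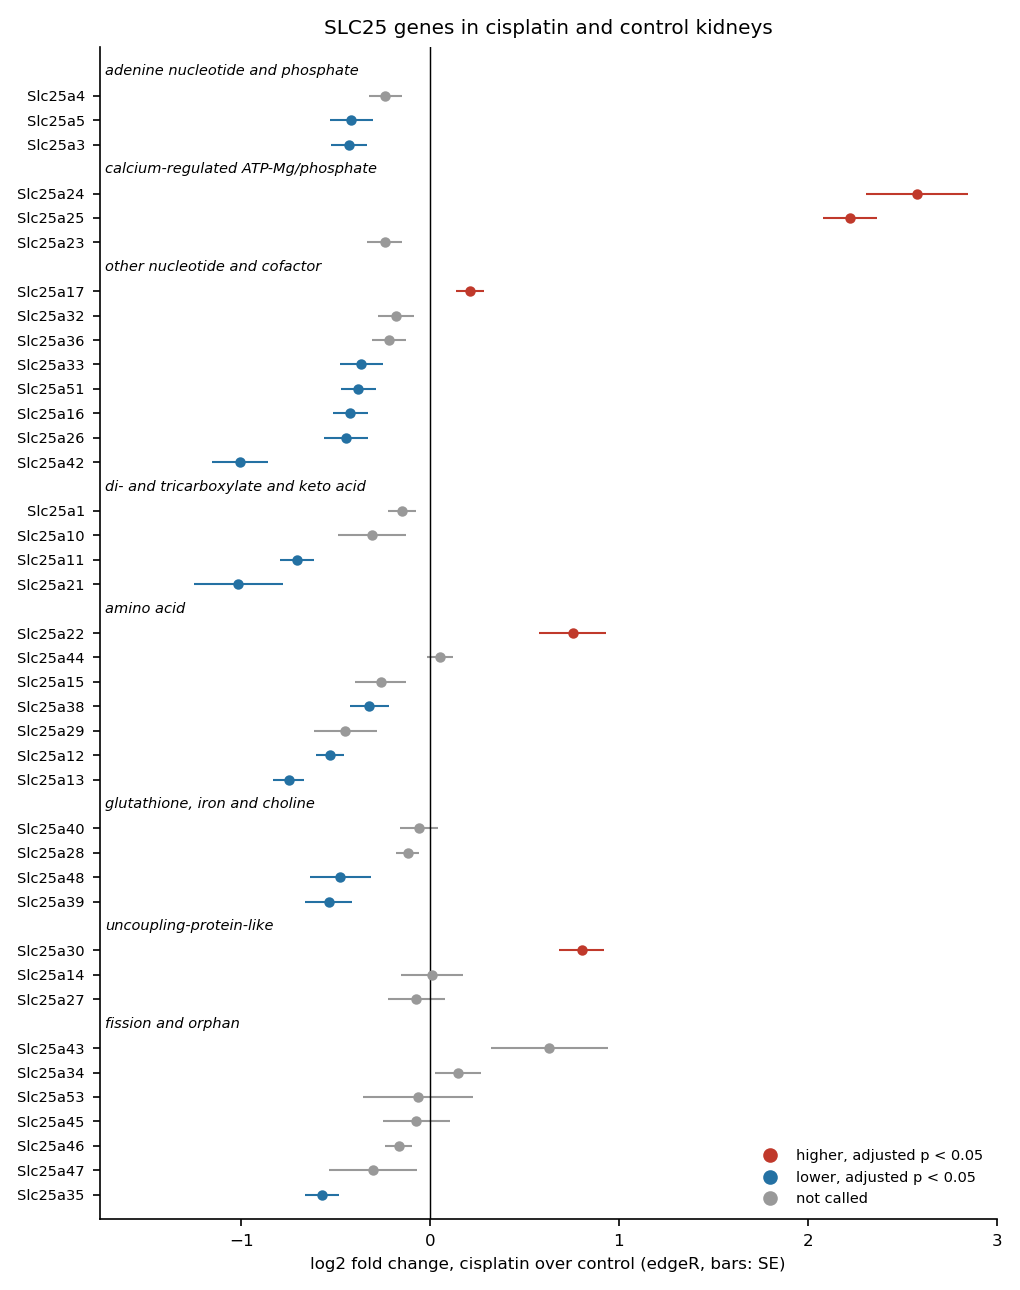
Log2 fold change of 39 SLC25 genes, cisplatin over control, with SE bars from edgeR (3 libraries per group), grouped by what they carry; red marks genes that were higher and blue genes that were lower at an adjusted p under 0.05. The 2 points beyond 2 on the log2 scale are Slc25a24 and Slc25a25, and the 15 blue points lie between -1.01 and -0.32.

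Transcript levels ran from a mean of 0.29 FPKM for Slc25a53 in the controls to 812 FPKM for Slc25a5. Only 6 carriers exceeded 100 FPKM in the controls, and 8 stayed under 5 FPKM in both groups. The 4 most abundant were Slc25a5, Slc25a39, Slc25a3 and Slc25a4, which together made up 69.2% to 71.6% of the family's summed FPKM in the controls and 65.6% to 66.5% in cisplatin. The summed FPKM of the 40 carriers was 3526 to 3617 in the controls and 2949.6 to 3156 in cisplatin, with no overlap. Transcripts of all 44 genes took 0.614% to 0.644% of all estimated counts in the controls and 0.533% to 0.576% in cisplatin. Across the 40 genes, the control level and the log2 fold change had a Spearman's rho of -0.35, a description over genes measured in the same libraries.

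**Figure D2:**
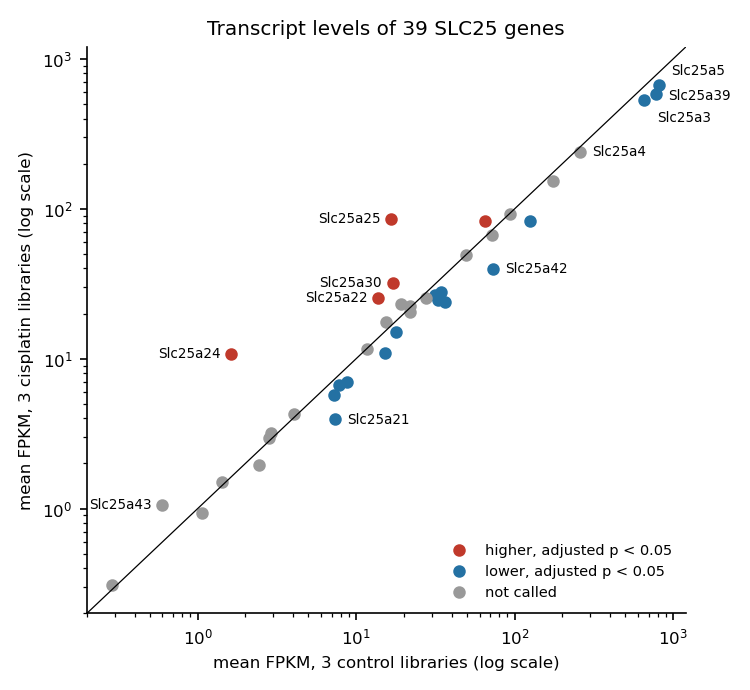
Mean FPKM of each of 39 SLC25 genes in 3 control libraries (x axis, log scale) and 3 cisplatin libraries (y axis, log scale); the line marks equal levels. Slc25a24 and Slc25a25 stand farthest above the line, and Slc25a5, Slc25a39 and Slc25a3, at 535 FPKM or more in both groups, lie a little below it.

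The carriers that feed ATP synthase were abundant and 2 of the 3 fell. Slc25a3, the carrier that brings phosphate into the matrix, had 676.3, 657.5 and 636.2 FPKM in control replicates 1 to 3 and 541.2, 533.4 and 531.4 FPKM in cisplatin replicates 1 to 3 (log2 fold change -0.43, SE 0.10, adjusted p = 0.00753). The cisplatin values were close together and all under the lowest control. Slc25a5 and Slc25a4 encode adenine nucleotide translocases, which swap matrix ATP for cytosolic ADP. Slc25a5 (chromosome X, 36795597 to 36798808, GRCm38.p6) had 865.6, 776.4 and 794.4 FPKM in control replicates 1 to 3 and 674.0, 619.6 and 706.9 FPKM in cisplatin replicates 1 to 3 (log2 fold change -0.42, SE 0.12, adjusted p = 0.0182), again without overlap. Its call was lost without control replicate 1 (adjusted p = 0.0700) or cisplatin replicate 1 (0.0753). Slc25a4, the isoform known from heart and muscle, had 265.2, 233.6 and 272.8 FPKM in control replicates 1 to 3 and 240.3, 254.0 and 225.3 FPKM in cisplatin replicates 1 to 3 (log2 fold change -0.24, SE 0.09, adjusted p = 0.0566). Its FPKM values overlapped between groups, although its CPM values did not. It passed without control replicate 2 (adjusted p = 0.0426) and in the DESeq2 Wald test (0.0172), but not in edgeR with DESeq2 size factors (0.0516). The pair is closely related, and a pseudogene copy of Slc25a5 is annotated on chromosome 14, so some reads may be shared. The testis isoform Slc25a31 had 3 reads in all 6 libraries together and was not tested.

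The largest changes in the family were rises of 2 calcium-regulated carriers that exchange ATP-Mg for phosphate and so set the adenine nucleotide content of the matrix. Slc25a24 (chromosome 3, 109123149 to 109168409) had 1.68, 1.40 and 1.81 FPKM in control replicates 1 to 3 and 11.5, 14.2 and 6.62 FPKM in cisplatin replicates 1 to 3. It was low in every control, and cisplatin replicate 3 held the lowest of the raised values. The rise was 5.97-fold (log2 fold change 2.58, SE 0.27, adjusted p = 0.000428). Slc25a25 (chromosome 2, 32414487 to 32451470) had 13.6, 18.7 and 17.5 FPKM in control replicates 1 to 3 and 99.7, 79.3 and 76.2 FPKM in cisplatin replicates 1 to 3. All cisplatin libraries stood far above all controls, a 4.67-fold rise (log2 fold change 2.22, SE 0.14, adjusted p = 2.22e-05). Over 14 alternative analyses the log2 fold change of Slc25a24 ran from 2.11 to 2.80 and that of Slc25a25 from 2.10 to 2.36. Slc25a25 overlaps Naif1 in the annotation, and no source used here says whether counting used strand. Slc25a23, the third carrier of this kind and the most abundant of them in the controls, had 69.3, 71.01 and 75.7 FPKM in control replicates 1 to 3 and 65.8, 63.6 and 70.3 FPKM in cisplatin replicates 1 to 3. Its FPKM ranges overlapped, although its CPM values did not, and it was not called (log2 fold change -0.24, SE 0.09, adjusted p = 0.0596). It passed without cisplatin replicate 3 (log2 fold change -0.32, adjusted p = 0.00780) and in the DESeq2 Wald test (0.0357). With DESeq2 size factors in edgeR it did not pass (0.0562). Slc25a41, the fourth, had 1 read in all libraries together. In the controls Slc25a23 had a mean of 72.0 ± 3.3 FPKM and Slc25a25 one of 16.6 ± 2.7 FPKM, whereas in cisplatin Slc25a25 had the higher mean, 85.1 ± 12.8 against 66.5 ± 3.4 FPKM (SD, n = 3 each).

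**Figure D3:**
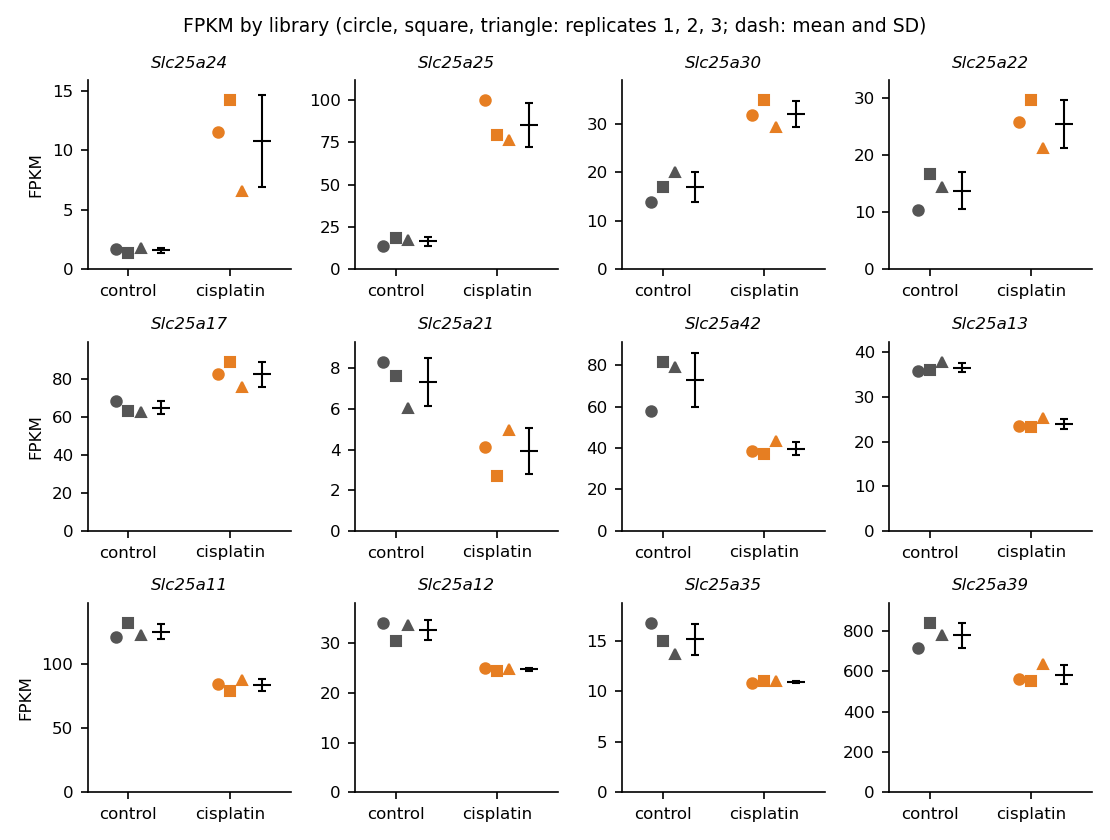
FPKM of 12 SLC25 genes in each library (y axes from 0, each with its own scale); grey points are control and orange points cisplatin replicates 1 (circle), 2 (square) and 3 (triangle), and dashes with bars are the mean and SD of 3 libraries. All 12 were picked from the called carriers, and in each the control and cisplatin points do not overlap. Over all genes tested, 38.4% lay higher and 20.4% lower without overlap in FPKM. The first 5 genes shown rose and the other 7 fell.

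Carriers of other nucleotides and of cofactors fell in 6 of 9 members, rose in 1 and were not called in 2 (median log2 fold change -0.38). Of all genes tested, 22.2% were lower and 23.1% higher. Slc25a42, which imports coenzyme A into the matrix (chromosome 8, 70184340 to 70212281), had 57.9, 81.6 and 78.9 FPKM in control replicates 1 to 3 and 38.5, 37.2 and 43.3 FPKM in cisplatin replicates 1 to 3. Control replicate 1 was the lowest control but still above all cisplatin libraries, and the gene was 2.01-fold lower (log2 fold change -1.01, SE 0.15, adjusted p = 0.00126). Slc25a16, linked to coenzyme A import, changed by -0.42, Slc25a26, the S-adenosylmethionine carrier, by -0.44, and Slc25a51, the NAD carrier, by -0.38 on the log2 scale, all called lower. The Slc25a26 call was lost without control replicate 2 (edgeR adjusted p = 0.0574), and this gene overlaps Lrig1 in the annotation.

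Slc25a17 was the member of this group that rose, and it is the exception by location, since its protein sits in the peroxisome membrane. It had 68.6, 63.3 and 62.6 FPKM in control replicates 1 to 3 and 82.5, 88.96 and 75.9 FPKM in cisplatin replicates 1 to 3. The groups did not overlap, but the change was 1.16-fold (log2 fold change 0.21, SE 0.07, adjusted p = 0.047), and the call was lost in 9 of 14 alternatives, including without each control replicate and without cisplatin replicate 1 or 2 (adjusted p from 0.0571 to 0.170 in those 5). The pyrimidine nucleotide carriers Slc25a33 and Slc25a36 were lower and not called, respectively. Slc25a33 had 8.50, 7.41 and 7.56 FPKM in control replicates 1 to 3 and 6.91, 6.11 and 6.99 FPKM in cisplatin replicates 1 to 3 (log2 fold change -0.36, SE 0.11, adjusted p = 0.0307), a call lost when any single library other than cisplatin replicate 3 was left out (adjusted p from 0.0557 to 0.108) and with scaling to library size (0.121). Slc25a36 had 23.5, 19.8 and 22.04 FPKM in control replicates 1 to 3 and 20.6, 19.8 and 21.5 FPKM in cisplatin replicates 1 to 3, overlapping between groups (log2 fold change -0.22, SE 0.09, adjusted p = 0.0828), and passed without cisplatin replicate 3 (0.0159). Slc25a32, a carrier of folate and FAD, had an estimate of -0.18 and was not called (edgeR adjusted p = 0.162).

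Among carriers of di- and tricarboxylates and keto acids, 2 of 4 fell and none rose. Slc25a11 exchanges oxoglutarate for malate in the malate-aspartate shuttle. It had 120.9, 131.2 and 122.3 FPKM in control replicates 1 to 3 and 84.2, 78.5 and 87.2 FPKM in cisplatin replicates 1 to 3, with every cisplatin library lower (log2 fold change -0.70, SE 0.09, adjusted p = 0.000511). Slc25a21, which carries oxoadipate and oxoglutarate in lysine and tryptophan breakdown, is encoded by a gene of 484839 bases on chromosome 12 (56712634 to 57197472). It had 8.31, 7.63 and 6.03 FPKM in control replicates 1 to 3 and 4.14, 2.70 and 4.96 FPKM in cisplatin replicates 1 to 3. All cisplatin values were below all controls, with cisplatin replicate 3 nearest to them (log2 fold change -1.01, SE 0.24, adjusted p = 0.0103). Slc25a11 overlaps Rnf167 and Slc25a21 overlaps Pax9 in the annotation.

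Slc25a10, the dicarboxylate carrier and the most abundant of these, had 139.4, 201.0 and 182.3 FPKM in control replicates 1 to 3 and 155.1, 129.8 and 176.6 FPKM in cisplatin replicates 1 to 3. The groups overlapped, since control replicate 1 was lower than 2 cisplatin libraries, and the gene was not called (log2 fold change -0.31, SE 0.18, adjusted p = 0.195), although it passed without cisplatin replicate 3 (log2 fold change -0.47, adjusted p = 0.0468). Slc25a1, the citrate carrier that exports citrate for fatty acid synthesis, averaged 93.6 ± 4.4 FPKM in the controls and 92.7 ± 0.5 FPKM in cisplatin (SD, n = 3 each) and was not called (log2 fold change -0.15, SE 0.08).

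Amino acid carriers were split, with 3 of 7 lower, 1 higher and 3 not called. Slc25a12 and Slc25a13, the calcium-binding aspartate-glutamate carriers of the malate-aspartate shuttle, both fell. Slc25a13 (chromosome 6, 6041218 to 6217304) had 35.8, 36.01 and 37.8 FPKM in control replicates 1 to 3 and 23.4, 23.2 and 25.2 FPKM in cisplatin replicates 1 to 3 (log2 fold change -0.75, SE 0.08, adjusted p = 0.000259). Slc25a12 had 33.9, 30.4 and 33.5 FPKM in control replicates 1 to 3 and 24.95, 24.4 and 24.8 FPKM in cisplatin replicates 1 to 3 (log2 fold change -0.53, SE 0.07, adjusted p = 0.000788). In both genes the groups were clearly apart and the replicates close together. Slc25a22, which imports glutamate with a proton (chromosome 7, 141429749 to 141437874), went the other way. It had 10.3, 16.7 and 14.4 FPKM in control replicates 1 to 3 and 25.8, 29.6 and 21.2 FPKM in cisplatin replicates 1 to 3, each cisplatin library above each control, a 1.69-fold rise (log2 fold change 0.76, SE 0.18, adjusted p = 0.0116). Slc25a18, its close relative, was below the rule with 24 reads in all libraries and at most 8 in any of them.

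Slc25a15, the ornithine carrier of the urea cycle, had 26.8, 28.3 and 27.9 FPKM in control replicates 1 to 3 and 24.9, 21.2 and 29.6 FPKM in cisplatin replicates 1 to 3. Cisplatin replicate 3 lay above all controls and the other 2 cisplatin libraries below them, and the gene was not called (log2 fold change -0.26, SE 0.14, adjusted p = 0.151) unless replicate 3 was left out (log2 fold change -0.43, adjusted p = 0.00344). Slc25a29, a carrier of basic amino acids, had 2.59, 2.59 and 2.12 FPKM in control replicates 1 to 3 and 2, 1.85 and 2.03 FPKM in cisplatin replicates 1 to 3 and did not pass (log2 fold change -0.45, SE 0.17, adjusted p = 0.0584), except without control replicate 3 (0.0492). Slc25a38, which brings glycine into the matrix for heme synthesis, changed by -0.32 and was called lower (edgeR adjusted p = 0.0331). That call was lost without any 1 library other than cisplatin replicate 3 (0.0574 to 0.0859) and with scaling to library size (0.135). Erythroid markers were far lower in cisplatin, as given above, and their part in this value was not tested. Slc25a44, a carrier of branched-chain amino acids, had an estimate of 0.05 and was not called (edgeR adjusted p = 0.554). Slc25a2, another ornithine carrier, had 11 reads in total.

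Of the carriers of glutathione, iron and choline, 2 of 4 fell. Slc25a39, which imports glutathione and was the second most abundant carrier (chromosome 11, 102402969 to 102408675), had 716.0, 836.7 and 777.6 FPKM in control replicates 1 to 3 and 560.5, 551.5 and 635.5 FPKM in cisplatin replicates 1 to 3. It was lower in all cisplatin libraries, and replicate 3 was again the nearest to the controls (log2 fold change -0.54, SE 0.12, adjusted p = 0.00795). Its relative Slc25a40 had 4.11, 3.87 and 4.14 FPKM in control replicates 1 to 3 and 4.44, 4.20 and 4.12 FPKM in cisplatin replicates 1 to 3, with overlapping values and no call (log2 fold change -0.06, SE 0.10, adjusted p = 0.672). Slc25a28, mitoferrin 2, which imports iron, had an estimate of -0.12 and was not called (edgeR adjusted p = 0.159). Slc25a48, linked to choline import, changed by -0.47 and was called lower (0.0399), a call lost without any 1 library other than cisplatin replicate 3 (0.0501 to 0.122) and with scaling to library size (0.0988). Its FPKM values overlapped between groups (6.29 to 7.76 in the controls and 4.57 to 6.37 in cisplatin), although its CPM values did not.

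Among the carriers that resemble uncoupling proteins 1 of 3 rose, beside 23.1% of all genes tested. Slc25a30, known as kidney mitochondrial carrier protein (chromosome 14, 75757534 to 75787037), had 13.9, 16.9 and 20.1 FPKM in control replicates 1 to 3 and 31.9, 34.9 and 29.5 FPKM in cisplatin replicates 1 to 3. The cisplatin libraries were all above the controls, a 1.75-fold rise (log2 fold change 0.80, SE 0.12, adjusted p = 0.00104). Slc25a14 had 2.87, 2.89 and 2.99 FPKM in control replicates 1 to 3 and 2.89, 3.19 and 3.54 FPKM in cisplatin replicates 1 to 3, with overlap (log2 fold change 0.01, SE 0.17, adjusted p = 0.964). Slc25a27, best known from neurons, had an estimate of -0.07 and was not called (edgeR adjusted p = 0.726).

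The last group holds carriers without an agreed substrate and Slc25a46, an outer membrane protein of mitochondrial dynamics. Of its 7 members 1 fell, beside 22.2% of all genes tested. Slc25a35 had 16.7, 15.02 and 13.7 FPKM in control replicates 1 to 3 and 10.9, 10.99 and 11.02 FPKM in cisplatin replicates 1 to 3 (log2 fold change -0.57, SE 0.09, adjusted p = 0.00155). Its cisplatin values were nearly equal and all lower than the controls, and it overlaps Rangrf in the annotation. Slc25a34, its relative, had 16.7, 20.6 and 20.1 FPKM in control replicates 1 to 3 and 23.9, 20.6 and 25.3 FPKM in cisplatin replicates 1 to 3, with overlap at 20.6 FPKM (log2 fold change 0.15, SE 0.12, adjusted p = 0.347). Slc25a45, the most abundant of the group by its mean over all 6 libraries, had 18.7, 26.6 and 20.6 FPKM in control replicates 1 to 3 and 21.9, 19.3 and 26.5 FPKM in cisplatin replicates 1 to 3, also overlapping (log2 fold change -0.07, SE 0.18, adjusted p = 0.765). Slc25a46, Slc25a47, Slc25a43 and Slc25a53 had estimates of -0.17, -0.30, 0.63 and -0.07 and were not called. The members just inside the rule on reads were Slc25a53 and Slc25a43, with 104 and 116 reads over all libraries, and those just outside were Slc25a18 and Slc25a2, with 24 and 11. On limma's test of log2(FPKM + 1), Slc25a43 was called higher (adjusted p = 0.0404). It lies 18.3 kb from Slc25a5 on chromosome X, a neighbour that fell.

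Gaps between the groups were common, since 38.4% of all genes tested lay higher and 20.4% lower without overlap in FPKM. No such count was made for shares within other pairs of genes. Within pairs of related carriers, shares of the summed FPKM did not overlap between groups in 7 of 10 pairs. Each of these 7 reached p = 0.1 in the two-sided exact permutation test, the smallest that 3 against 3 libraries allow, or 0.143 after Benjamini-Hochberg adjustment over the 10 pairs, so none could pass 0.05. Slc25a24 made up 2.37%, 1.93% and 2.34% of its sum with Slc25a23 in control replicates 1 to 3 and 14.9%, 18.3% and 8.61% in cisplatin replicates 1 to 3. Slc25a35 held 44.2% ± 5.1 of its sum with Slc25a34 in the controls and 32.1% ± 2.3 in cisplatin (SD, n = 3 each). Slc25a10 held 58.0% ± 3.8 and 64.7% ± 2.3 of its sum with Slc25a11, and Slc25a30 held 85.1% ± 2.1 and 90.9% ± 1.4 of its sum with Slc25a14. Of the aspartate-glutamate carriers, Slc25a13 made up 52.9% ± 1.5 of the pair in the controls and 49.2% ± 1.1 in cisplatin.

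Among these 7, the smallest gaps were those of Slc25a33 against Slc25a36 (26.4% and 24.4%) and of Slc25a40 against Slc25a39 (0.52% and 0.73%). Slc25a5 against Slc25a4 (76.0% ± 1.3 and 73.5% ± 2.5), Slc25a25 against Slc25a24 (90.9% ± 2.0 and 88.8% ± 3.7) and Slc25a15 against Slc25a29 (91.9% ± 0.9 and 92.7% ± 0.8) overlapped between groups. The difference of Slc25a25 against Slc25a24, -2.07 percentage points, was -0.06 without cisplatin replicate 2, and that of Slc25a5 against Slc25a4, -2.46, was -1.18 without it. The exact permutation p of the 3 overlapping pairs was 0.2, 0.5 and 0.3 (0.25, 0.5 and 0.333 after adjustment over the 10). Slc25a24 is in 2 of the pairs, which are therefore not independent.

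**Figure D4:**
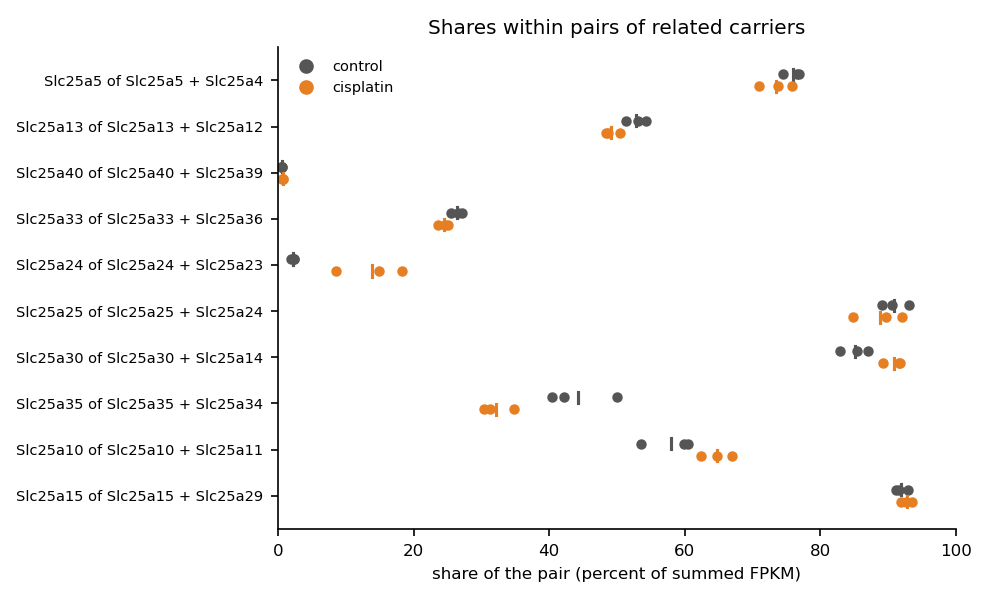
Share of the first-named gene in the summed FPKM of its pair (x axis, percent) in each control (grey) and cisplatin (orange) library, with a tick at the mean of 3. Slc25a24 beside Slc25a23 (2.21% and 13.9% on average) and Slc25a35 beside Slc25a34 (44.2% and 32.1%) are the pairs with the widest gaps.

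In CPM, cisplatin replicate 3 lay nearest to the controls in most called carriers. In all 16 carriers that fell, cisplatin replicate 3 had the highest CPM of the 3 cisplatin libraries, against 66.9% of the 3201 lower genes overall. In 4 of the 5 that rose it had the lowest, against 64.1% of the 3326 higher genes, Slc25a25 being the exception. These orders depend on the scaling, since the TMM factors were 1.07, 1.077 and 0.998 in cisplatin replicates 1 to 3. In FPKM, which carry no such factors, the order among the carriers that fell was mixed. There cisplatin replicate 3 was the highest of its group for Slc25a39 (635.5 FPKM) but the lowest for Slc25a3 (531.4 FPKM). Cisplatin replicate 3 had the lowest injury and highest proximal tubule markers, but also the lowest thick limb markers, as given above. Without that library, 5 carriers were higher and 20 lower, and the median log2 fold change of the family was -0.31, beside 24.7% of all genes higher and 24.5% lower.

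Other genes of solute exchange at the mitochondrion and of carrier import were given by a list of 32, of which 31 were tested. Of these, 3 were higher (9.68%), 17 lower (54.8%) and 11 not called (median log2 fold change -0.27). Among all genes tested, 23.1% were higher and 22.2% lower, with a median of 0.01. Those shares also stand beside the counts for parts of the list given below. Both subunits of the pyruvate carrier fell, Mpc1 by 0.99 and Mpc2 by 0.60 on the log2 scale. Ucp2, an uncoupling protein that belongs to the SLC25 family by sequence but not by symbol, had 123, 139.7 and 187 FPKM in control replicates 1 to 3 and 356, 583 and 304 FPKM in cisplatin replicates 1 to 3. It rose without overlap (log2 fold change 1.32, SE 0.25, edgeR adjusted p = 0.00497). Ucp3 also passed (3.28, SE 0.82), at levels of 0.00 to 0.15 FPKM in the controls and 0.40 to 1.11 FPKM in cisplatin, and Ucp1 was below the count filter.

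Of 3 outer membrane channels, Vdac1 and Vdac2 fell (log2 fold changes -0.45 and -0.29) and Vdac3 was not called (-0.16). Both carrier homologues of that membrane, Mtch1 and Mtch2, fell (-0.32 and -0.44). Of 5 sideroflexins, Sfxn2, Sfxn4 and Sfxn5 fell (-0.52, -0.50 and -1.02), and Sfxn1 and Sfxn3 were not called (-0.09 and 0.09). Of the calcium uniporter complex, 4 of 7 genes fell, led by Mcur1 (-0.72), and Mcub, which encodes an inhibitory subunit, was higher (1.18); its FPKM values of 0.45 to 1.04 in the controls and 1.07 to 2.41 in cisplatin nearly met, and its CPM values overlapped. Of 10 genes for the import of carrier proteins into the inner membrane, 4 fell and none rose. Timm9, a chaperone between the membranes, changed by -0.79, and Timm22, the core of the insertion complex, by -0.35.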

How the data were processed

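The deposited table gives, per the file headers, read counts, FPKM and TPM for each of 6 kidney libraries. Reads were aligned with HISAT to GRCm38.p6, per the submitters' processing notes; no source used here gives the annotation, counting program or strandedness. The deposited counts are estimated counts, 66.2% to 67.7% of them whole, and were rounded. FPKM values deposited by the authors served for levels and for an alternative test, and deposited TPM values for an alternative. The names of the control columns hold initials and a replicate number, and were matched to the control samples because the others name cisplatin. Within groups, counts differed by 7.37 to 43.8 times the sampling variance, so no library was a copy.

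Genes passing edgeR's filterByExpr (minimum count 10) were compared with TMM factors and the robust quasi-likelihood F test (edgeR 4.0.16, R 4.3.3), two-sided, on group alone, adjusted by Benjamini-Hochberg over 14392 genes. SE is the absolute log2 fold change over the square root of F. The fit was also run on simulated counts in which few genes changed, equally up and down. In these data 45.4% of genes were called, so that run cannot show how the scaling behaves here. DESeq2 1.42.0 and limma 3.58.1 were alternatives. Shares within pairs used FPKM. Of the 40 carriers, 25 are described in full: the most abundant and the most changed called member of each group, the 6 largest called rises and falls (only 5 rose), and all members of pairs. The pair with Slc25a18 was dropped. Another carrier that met this rule enters the counts, medians and sums but is not reported here. Members and lists were chosen with earlier results of these data known. Positions, overlaps and promoters come from RefSeq (GRCm38.p6).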

Additional observations from a re-analysis of the deposited data

How the results depend on the processing

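Of 21 called carriers, 15 kept direction and call in all 14 alternatives. Calls were lost in at least 1 of them for Slc25a5, Slc25a17, Slc25a26, Slc25a33, Slc25a38 and Slc25a48. The family's median log2 fold change was -0.25 in the main analysis, -0.12 with scaling to library size, and -0.11 and -0.13 in limma on log2(FPKM + 1) and log2(FPKM + 0.1); it lay 0.21 to 0.31 below the median of all genes throughout. Higher carriers numbered 4 to 6 and lower ones 12 to 20 over all alternatives. When 1 library was left out, the counts were 4 to 5 and 12 to 20 and the median -0.31 to -0.23. Small estimates of carriers that were not called changed sign. With library-size scaling these were Slc25a28 (0.017), Slc25a40 (0.079), Slc25a27 (0.066), Slc25a45 (0.058) and Slc25a53 (0.072). In limma they were Slc25a32 (0.051 with a pseudocount of 1 and 0.065 with 0.1), Slc25a40 (0.060 and 0.072), Slc25a27 (0.046 and 0.074), Slc25a45 (0.043 and 0.045) and Slc25a53 (0.024 and 0.070). Without 1 library the estimates ran from -0.113 to 0.094 for Slc25a14, from -0.277 to 0.079 for Slc25a53, from -0.249 to 0.095 for Slc25a45 and from -0.142 to 0.065 for Slc25a27. The cause was not tested. Differences in shares within pairs kept their sign on CPM, on TPM and without any 1 library, but 5 of the 10 moved by over 1.5 times. Slc25a25 with Slc25a24 (-2.07 percentage points) ran from -3.66 to -0.06 without 1 library, Slc25a5 with Slc25a4 (-2.46) from -3.63 to -1.18, and Slc25a15 with Slc25a29 (0.80) from 0.36 to 1.31. On CPM, which is not divided by length, Slc25a33 with Slc25a36 was -1.05 (-2.02 on FPKM), Slc25a40 with Slc25a39 was 0.39 (0.21) and Slc25a15 with Slc25a29 was 0.48.

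Same-numbered libraries did not deviate together (correlations 0.03, -0.14 and -0.13), so the numbers were not taken as pairs. With the replicate block, 4 carriers were higher and 15 lower, and the median was -0.26.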
